A study of Mus musculus with 9 samples.

Results

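Liver transcriptomes of mice with chronic DSS colitis were compared with those of Control mice, across the nuclear genes. The comparison used 6 of the 9 liver RNA-seq libraries of the series, 3 labelled DSS and 3 labelled Control, and 56711 of the 56748 genes of the count table, which are those not on the mitochondrial chromosome. All 6 came from mice labelled C57BL/6, named C57BL/6J in the methods of the study, and no transgene or deletion is given. The DSS mice received 3 cycles of 1.8% (w/v) dextran sulfate sodium in drinking water, each of 1 week with 1 week of recovery after it, and a daily oral dose of 200 μL sterile water. The Control mice are recorded with the same daily dose, and their labels name water as the treatment. The methods of the study give this dose for a control group, without saying whether it was the Control group, the DSS group or both. Because the series text attributes chronic colitis to the mice without exempting a group, that the Control mice drank no DSS rests on their labels. The remaining group of the series, labelled Indirubin, enters below in 1 alternative fit. The methods of the study describe young adult wild-type mice. The labels give neither age nor sex and do not state outright that each library is 1 mouse, so the p-values measure the spread between these libraries.

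Dextran sulfate sodium is a sulfated polysaccharide that injures the colonic epithelium. Blood from the gut reaches the liver through the portal vein, carrying bacterial products and cytokines. Hepatocytes answer cytokines such as interleukin-6 by secreting acute phase proteins into plasma, which bind microbial products, free hemoglobin, heme and iron. Hepatocytes also respond to interferons and to pulsatile growth hormone. In male mice, growth hormone acting through STAT5B sustains a set of male-predominant liver genes, among them those of the major urinary proteins (MUPs), small pheromone-carrying lipocalins.

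Total counts ranged from 6514863 to 7944684 per library. Mitochondrial genes took 87.5% to 91.3% of the counts in Control and 72.4% to 87.7% in DSS (exact two-sided permutation p = 0.2, where 0.10 is the smallest p that 3 against 3 allows), which left 569044 to 989212 nuclear counts in Control and 807612 to 2132208 in DSS. DSS-3 held the most nuclear counts and Control-3 the fewest, and DSS-2 had the fewest nuclear genes with a count (8271, against 10147 to 13612 in the others). DSS-2 stood apart on the first principal component and Control-3 on the second. The liver label was checked on its markers. Alb, the gene of the most abundant plasma protein, was at 10312, 10591 and 6782 normalized CPM (counts adjusted for depth with TMM scaling) in Control and 5949, 5169 and 9812 in DSS. The groups overlapped for Alb. Xist, the RNA of the inactive X chromosome, had 0 counts in all 6 libraries, and the Y-linked Ddx3y had 44 to 147 counts in each.

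Of 7449 nuclear genes that passed the filter on low counts, 16 rose (0.215%) and 31 fell (0.416%) in DSS at a Benjamini-Hochberg adjusted p under 0.05 in the quasi-likelihood test of edgeR. Among the genes that rose in the DSS livers were 9 of 28 tested acute phase genes, and among those that fell were 8 of 32 tested MUP and growth hormone axis genes and 5 of 36 tested interferon-stimulated genes. At an unadjusted p under 0.05, 260 of all tested genes (3.49%) were higher and 287 (3.85%) lower. None of the 47 called genes (0.631%) overlapped between the groups. Over all tested genes, 592 (7.95%) had every DSS library above every Control library and 594 (7.97%) had every DSS library below. Across the tested nuclear genes, log2 fold changes had a median of 0.01 and quartiles of -0.49 and 0.52.

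**Figure D1:**
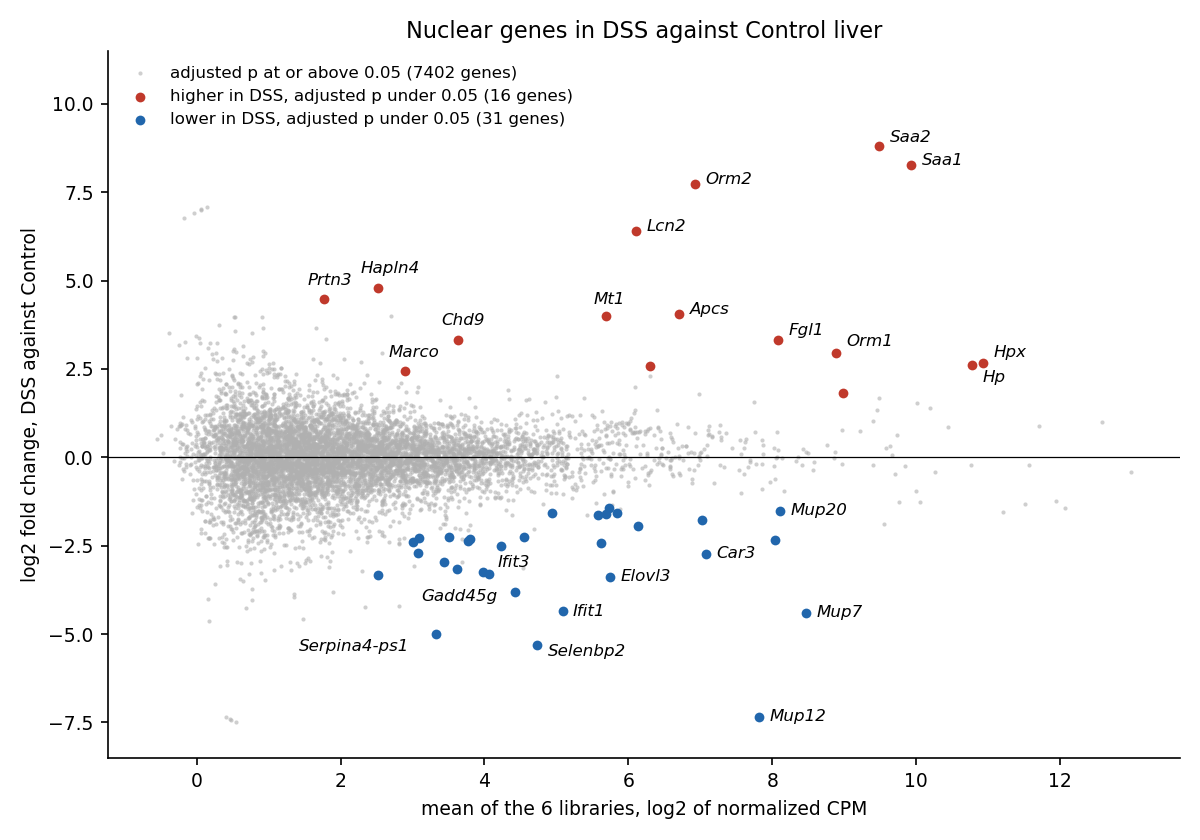
Each point is 1 of the 7449 tested nuclear genes, with the mean expression of the 6 libraries on the x axis (log2 of normalized CPM) and the log2 fold change of DSS against Control on the y axis. The 16 red genes rose and the 31 blue genes fell in DSS at an adjusted p under 0.05, with Saa2 highest at 8.80 and Mup12 lowest at -7.34.

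The number of called genes depended on single libraries, while their direction did not. Leaving out Control-1, Control-2 or Control-3 left 6, 5 and 4 genes higher and 18, 7 and 11 lower. Leaving out DSS-1, DSS-2 or DSS-3 left 27, 9 and 8 higher and 27, 21 and 11 lower. Of the 16 higher genes, Saa1, Saa2, Orm2 and Apcs were called in all 6 of these fits. Of the 31 lower genes, Mup7, Mup12, Selenbp2, Serpina4-ps1, Ifit3, Car3 and Gadd45g were called in all 6. The 47 genes had the same sign in each of the 6 fits. Without both Control-3 and DSS-2, edgeR called 0 genes higher and 10 lower, beside 251 and 323 at an unadjusted p under 0.05. With the library total as the only scale, the median of all nuclear genes moved up by 0.69 on the log2 scale, and 14 genes were called higher and 5 lower (73.7% of calls higher, against 34% with TMM scaling).

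**Figure D2:**
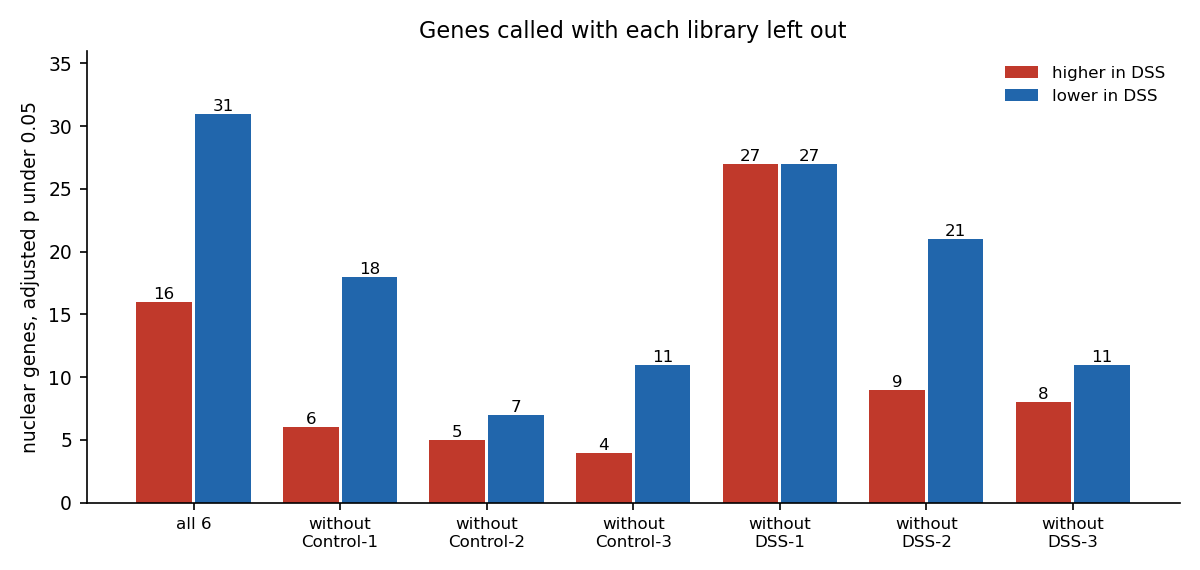
Bars count the nuclear genes with an adjusted p under 0.05 (y axis) with all 6 libraries and with each library left out (x axis), red for higher and blue for lower in DSS. The higher count ranges from 4 without Control-3 to 27 without DSS-1, and the lower count from 7 without Control-2 to 31 with all libraries.

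Acute phase genes made up much of the rise. Of 30 genes on the acute phase list, 28 passed the filter, and 9 of these rose while none fell. The median log2 fold change of the 28 was 1.62, against 0.01 over all tested nuclear genes. At an unadjusted p under 0.05, 21 of the 28 were higher and none was lower, and 17 of the 28 had every DSS library above every Control library. Together the 30 genes took 2.95% to 3.92% of nuclear counts in the Control libraries, and 6.07%, 15% and 17.4% in DSS-1, DSS-2 and DSS-3.

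Saa1 and Saa2 encode the serum amyloid A proteins, lipoprotein-bound acute phase reactants. Saa1 (ENSMUSG00000074115, GRCm39 chr7:46389921-46392404) was at 8.21, 8.0 and 2.64 normalized CPM in Control and at 246, 1770.0 and 3827 in DSS. It rose by 8.25 on the log2 scale (SE 0.93, edgeR adjusted p = 0.00142). The lowest DSS library, DSS-1, was far above the highest Control library. Saa2 (ENSMUSG00000057465, GRCm39 chr7:46401214-46403737) went from 5.03, 4.22 and 0 normalized CPM to 189.8, 1263 and 2838, a log2 fold change of 8.80 (SE 1.13, edgeR adjusted p = 0.00216). The pair took 0.00211% to 0.0102% of nuclear counts in Control and 0.372%, 2.32% and 4.08% in DSS-1, DSS-2 and DSS-3. Saa1 and Saa2 are close copies, so the split of reads between them is uncertain. Saa3, the extrahepatic member of the family, had 5, 9 and 0 counts in Control and 29, 50 and 335 in DSS (log2 fold change 3.99, SE 0.91, edgeR adjusted p = 0.0782).

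Alpha-1-acid glycoproteins, plasma carriers of lipophilic compounds, showed the same direction. Orm2 (ENSMUSG00000061540, GRCm39 chr4:63280686-63284115) had 0, 16 and 4 counts in Control and 350, 2081 and 4586 in DSS. In normalized CPM this was 1.07 ± 1.18 against 242 ± 177 (SD, n = 3), a log2 fold change of 7.74 (SE 0.97, edgeR adjusted p = 0.00216). With a library left out, that fold change lay between 7.13 and 9.21. Orm1 started from a higher level, with 111, 111 and 101 normalized CPM in Control and 234, 1004 and 1285 in DSS (log2 fold change 2.96, SE 0.51, edgeR adjusted p = 0.0164). DSS-1 was the lowest DSS library for both. Apcs, serum amyloid P component, was at 12.6, 14.98 and 7.70 normalized CPM in Control and 67.7, 222 and 300.4 in DSS. It rose by 4.06 on the log2 scale (SE 0.51, edgeR adjusted p = 0.00216). The call for Orm1 was lost without Control-1, Control-2, Control-3 or DSS-3, and its log2 fold change lay between 2.51 and 3.41 over the 6 fits with a library left out.

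The promoters of 3 of these genes are shown because each holds a C/EBP motif, a sequence bound by the C/EBP factors that act on acute phase genes. Each sequence is the 250 bases before the RefSeq start of the gene in GRCm38.p6, an older build than the GRCm39 of the count table, written 5′ to 3′ on the gene's strand with the motif match in capitals. Saa1 is at chr7:46742981-46743230 (minus strand), Saa2 at chr7:46751583-46751832 (plus strand) and Orm2 at chr4:63362199-63362448 (plus strand).
Saa1: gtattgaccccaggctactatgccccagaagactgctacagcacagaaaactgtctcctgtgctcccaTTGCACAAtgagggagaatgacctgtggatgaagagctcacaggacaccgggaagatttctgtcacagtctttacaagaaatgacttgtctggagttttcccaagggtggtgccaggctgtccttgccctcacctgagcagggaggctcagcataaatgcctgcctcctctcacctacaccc
Saa2: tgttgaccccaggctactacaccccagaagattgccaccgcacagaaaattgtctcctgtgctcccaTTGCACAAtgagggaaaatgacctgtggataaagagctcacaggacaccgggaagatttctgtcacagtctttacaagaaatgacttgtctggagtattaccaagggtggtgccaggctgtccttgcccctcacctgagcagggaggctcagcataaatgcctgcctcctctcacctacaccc
Orm2: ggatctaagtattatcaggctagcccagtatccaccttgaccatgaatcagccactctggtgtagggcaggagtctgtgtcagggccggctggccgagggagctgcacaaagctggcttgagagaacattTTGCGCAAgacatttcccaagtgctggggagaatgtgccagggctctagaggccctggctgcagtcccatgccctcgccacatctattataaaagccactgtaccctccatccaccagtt
The matches begin 182, 183 and 120 bases before the start. The Saa1 and Saa2 windows were 94.8% identical over 251 aligned positions. On either strand, TTGCGCAA or TTGCACAA was found in 4 of 23 acute phase genes with a RefSeq window (Orm2, Orm3, Saa1 and Saa2), and in 1.08% of 27025 windows in all. It was 1 of 10 motifs searched. The STAT motif TTCCNGGAA was in 2 of 23 acute phase windows, 3 of 31 interferon windows and 0.914% of all windows, and the E-box CACGTG in 1 of 23, 0 of 31 and 6.05%. The HNF4A, NF-κB, NRF2, XRE, SREBP and D-box motifs (CAAAGTCCA, GGAATTTCC, TGACTCAGC, TTGCGTG, TCACCCCAC and TTATGTAA) were in none of the acute phase windows and in at most 1 interferon window each.

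Plasma proteins that bind hemoglobin and heme rose from high Control levels, and a siderophore-binding protein and a metallothionein rose from low ones. Hp, haptoglobin, which binds free hemoglobin, was at 494, 599 and 397 normalized CPM in Control and 1027, 3419.6 and 4606 in DSS (log2 fold change 2.60, SE 0.50, edgeR adjusted p = 0.0321). Hpx, hemopexin, which binds heme, was at 519, 662 and 426 against 1185, 3267 and 5669.9 normalized CPM (log2 fold change 2.65, SE 0.51, edgeR adjusted p = 0.0321). For both, DSS-1 was about 2-fold above the Control mean while DSS-2 and DSS-3 were further away. Lcn2, a lipocalin that withholds iron from bacteria by binding siderophores, had 28, 0 and 0 counts in Control and 139, 1192 and 2633 in DSS, a log2 fold change of 6.40 (SE 1.18, edgeR adjusted p = 0.0239). Its fold change was the least determined of the group, between 5.79 and 13.1 with a library left out, since a Control group without Control-1 holds no count. Mt1, the zinc-binding metallothionein, was at 5.36, 7.56 and 5.28 normalized CPM in Control and 21.0, 140.4 and 130.4 in DSS (log2 fold change 3.99, SE 0.59, edgeR adjusted p = 0.00612). On the list of iron, heme and metal genes 31 of 35 passed the filter, Mt1, Hp and Hpx rose and none fell, and the median log2 fold change was 0.44, or 1.12 with the library total as the only scale. Trf, transferrin, the plasma carrier of iron, was at 2220 to 2484 normalized CPM in Control and 2428 to 6774 in DSS, and the groups overlapped (log2 fold change 0.90, edgeR adjusted p = 0.666). Hamp, hepcidin, the hormone that lowers iron export, had 339, 439 and 58 counts in Control and 284, 619 and 1109 in DSS and the groups overlapped in normalized CPM (log2 fold change 0.69, edgeR adjusted p = 0.93). Hp was called in 1 of the 6 fits with a library left out, as was Hpx, and Mt1 and Lcn2 in 3 each.

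Other secreted hepatocyte proteins moved with them. Fgl1, a fibrinogen-like protein made by hepatocytes, was at 62.5, 51.3 and 32.8 normalized CPM in Control and 211, 452 and 813 in DSS (log2 fold change 3.33, SE 0.48, edgeR adjusted p = 0.00436). Lrg1, leucine-rich alpha-2-glycoprotein, rose by 2.58 on the log2 scale (SE 0.42, edgeR adjusted p = 0.012), from 22.5 ± 4.69 to 135 ± 70.4 normalized CPM (SD, n = 3). Itih4, an inter-alpha-trypsin inhibitor heavy chain, rose by 1.83 (SE 0.39, edgeR adjusted p = 0.0494), from 223 ± 54.6 to 792 ± 335 normalized CPM. Fgl1, Lrg1 and Itih4 were called in 4, 2 and 1 of the 6 fits with a library left out. The fibrinogen chains Fga, Fgb and Fgg had log2 fold changes of 1.53, 1.40 and 1.67 with no overlap between the groups, and edgeR adjusted p-values of 0.0857, 0.18 and 0.0816. Crp, weakly induced in mice, had a log2 fold change of 0.84 (edgeR adjusted p = 0.64) and overlapping groups. Stat3, the transcription factor downstream of interleukin-6, had a log2 fold change of -0.18 (edgeR adjusted p = 1). Genes listed as dropping in the acute phase, mostly those of plasma proteins, had no called member among 14 tested. Their median log2 fold change was -0.23, which changed sign to 0.48 with the library total as the only scale. Of the 14, 8 were lower and 6 higher. The smallest p was that of Serpina7, with every DSS library above every Control library (log2 fold change 2.12, edgeR adjusted p = 0.153).

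**Figure D3:**
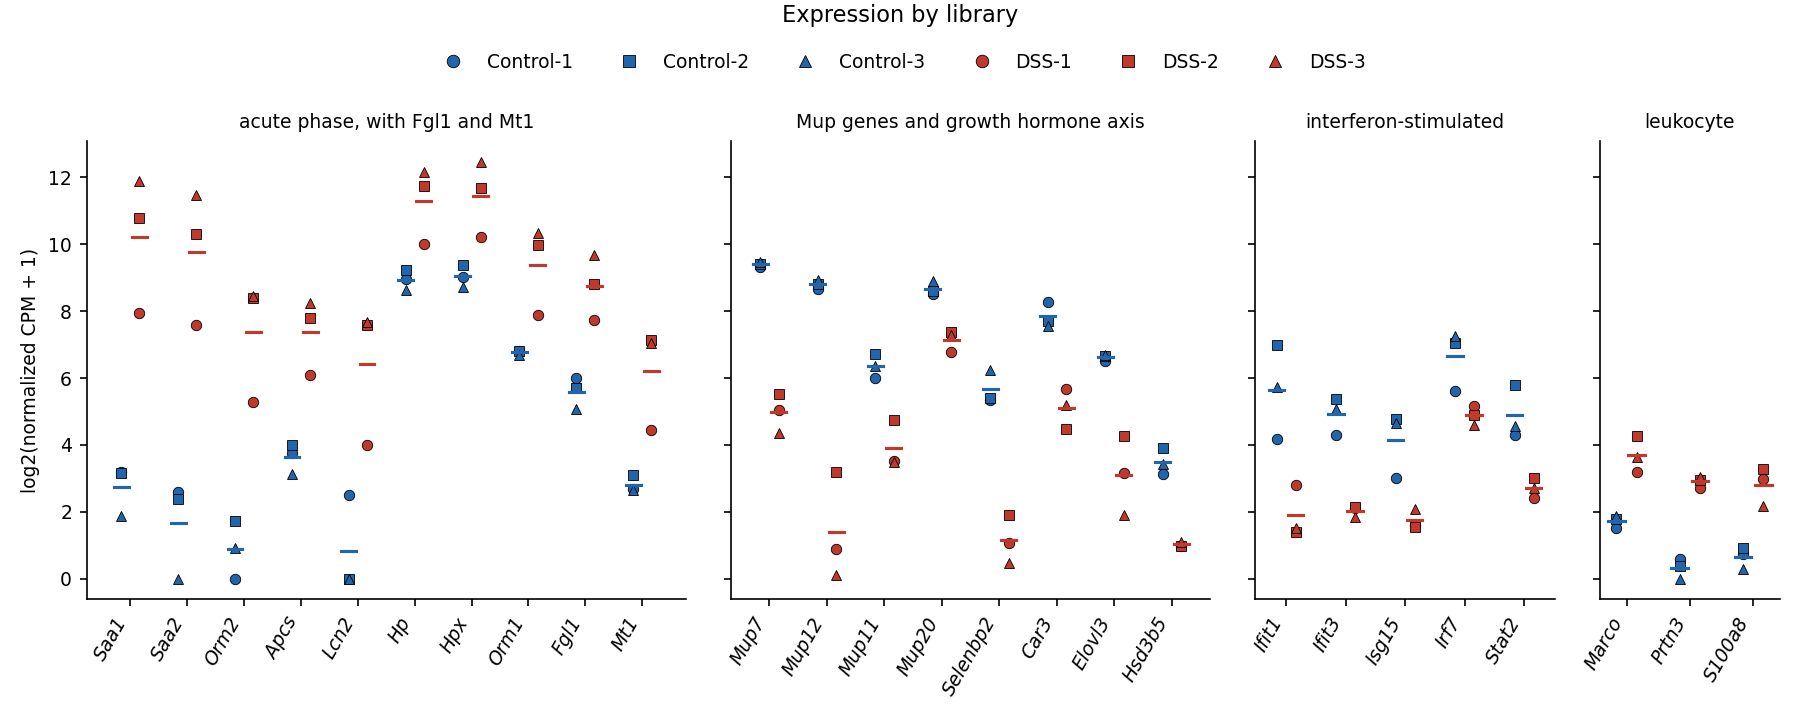
Normalized expression of 26 genes (y axis, log2 of CPM plus 1) in each of the 3 Control libraries (blue) and 3 DSS libraries (red), with marker shapes for replicates and bars for group means. Saa1 runs from 2.64 to 8.21 CPM in Control and from 246 to 3827 in DSS, and Mup7 from 636 to 713 in Control and from 19.6 to 45.2 in DSS.

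The MUP genes and other targets of growth hormone made up the largest group of falls. Of 46 genes on the list of MUPs and the growth hormone axis, 32 passed the filter, 8 fell and none rose. The median log2 fold change of the 32 was -1.81, and 22 had every DSS library below every Control library. With the library total as the only scale, the median was -1.18, 26 of the 32 stayed below 0 and 4 were called lower. The 22 genes with a Mup symbol took 2.12% to 2.42% of nuclear counts in Control and 0.438% to 0.688% in DSS.

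Mup7 (ENSMUSG00000073842, GRCm39 chr4:60066469-60070475) had the smallest p of all tested genes. Its expression was 636, 686 and 713 normalized CPM in Control and 31.7, 45.2 and 19.6 in DSS, and it fell by 4.40 on the log2 scale (SE 0.39, edgeR adjusted p = 2.37e-04). The Control libraries lay close together and the DSS libraries far below them. Mup12 (ENSMUSG00000094793, GRCm39 chr4:60693382-60697325) was at 401, 450.4 and 489 normalized CPM in Control and had 8, 50 and 1 counts in DSS, a log2 fold change of -7.34 (SE 0.99, edgeR adjusted p = 0.00349). With a library left out, that fold change lay between -10.0 and -6.7. Mup11 fell by 2.43 (SE 0.41, edgeR adjusted p = 0.0143) and Mup20, which encodes the male pheromone darcin, by 1.52 (SE 0.31, edgeR adjusted p = 0.0422). Mup20 was at 363, 388 and 475 normalized CPM in Control and 108, 164 and 156 in DSS, and its call was lost in each fit with a library left out, while that of Mup11 was lost without Control-2, Control-3 or DSS-3. Of 21 Mup genes on the list, 11 were tested, 4 were called lower and 9 had no overlap between the groups. Mup genes are near-identical copies in a cluster, so the split of reads among them is uncertain.

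The other called members are male-predominant or metabolic liver genes. Selenbp2 (ENSMUSG00000068877, GRCm39 chr3:94600863-94611720), a selenium-binding protein, was at 39.5, 41.2 and 74.97 normalized CPM in Control and 1.08, 2.75 and 0.383 in DSS (log2 fold change -5.32, SE 0.60, edgeR adjusted p = 0.00142). Car3, carbonic anhydrase 3, was at 309, 206 and 189 against 49.7, 21.2 and 35.7 normalized CPM (log2 fold change -2.72, SE 0.38, edgeR adjusted p = 0.00404). Elovl3, a fatty acid elongase, was at 90.0, 99.9 and 102 against 7.86, 18.1 and 2.76 (log2 fold change -3.37, SE 0.53, edgeR adjusted p = 0.0103). Selenbp2 and Car3 were called in each fit with a library left out, and Elovl3 in 5 of 6. Hsd3b5, a steroid dehydrogenase of male liver, had 46, 97 and 44 counts in Control and 9, 6 and 15 in DSS. It fell by 3.32 on the log2 scale (SE 0.55, edgeR adjusted p = 0.0142), and its call was lost without Control-2, Control-3 or DSS-3. Serpina4-ps1, a serpin pseudogene that is not on the list, had 99, 166 and 81 counts against 11, 1 and 5 (log2 fold change -5.002, SE 0.60, edgeR adjusted p = 0.00204).

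Receptor, transcription factor and target genes of the axis gave further values that did not pass the test. Ghr, the growth hormone receptor, had a log2 fold change of -0.0035 with overlapping groups, and Stat5b one of -0.74 (edgeR adjusted p = 0.9). Igf1, the circulating growth factor, had every DSS library below every Control library, with a log2 fold change of -0.64 (edgeR adjusted p = 0.69). Socs2, a feedback target of STAT5B, had 24, 80 and 20 counts in Control and 27, 7 and 6 in DSS, a log2 fold change of -2.16 (edgeR adjusted p = 0.44). Of 14 genes that are higher in female than in male liver, chosen after the data were seen, 8 had 0 counts in all 6 libraries and 1 passed the filter. That gene, Prlr, the prolactin receptor, had 42, 36 and 14 counts in Control and 93, 91 and 294 in DSS (log2 fold change 1.61, SE 0.46, edgeR adjusted p = 0.221).

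Some interferon-stimulated genes fell in DSS. Of 40 listed genes 36 passed the filter, 5 fell, none rose, and all 36 had a negative log2 fold change, of which 33 stayed negative with the library total as the only scale. On that scale none of the 5 was called and the median was -1.30. With TMM scaling the median was -2.05, and 24 of the 36 had every DSS library below every Control library. The summed expression of the 40 genes was 327.4, 785.5 and 661.1 normalized CPM in Control and 214.7, 137.8 and 134.4 in DSS. Control-1 was the lowest Control library and DSS-1 the highest DSS library, without overlap.

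Ifit3 (ENSMUSG00000074896, GRCm39 chr19:34560931-34566131), an antiviral RNA-response protein, was at 18.8, 40.0 and 32.5 normalized CPM in Control and 3.34, 3.39 and 2.61 in DSS. It fell by 3.29 on the log2 scale (SE 0.41, edgeR adjusted p = 0.00216) and was called in each fit with a library left out. Ifit1, which binds viral RNA, was at 17.1, 125 and 52.5 against 5.92, 1.62 and 1.84 normalized CPM (log2 fold change -4.36, SE 0.70, edgeR adjusted p = 0.0116). Control-2 was far above the other Control libraries for Ifit1, and the call was lost without Control-2 or DSS-3. Isg15, a ubiquitin-like modifier, had 42, 181 and 111 counts in Control and 19, 12 and 42 in DSS (log2 fold change -2.97, SE 0.54, edgeR adjusted p = 0.0222). Stat2, a subunit of the complex that type I interferon activates, fell by 2.50 (SE 0.45, edgeR adjusted p = 0.0234), from 31.9 ± 19.6 to 5.67 ± 1.40 normalized CPM (SD, n = 3). Irf7, a transcription factor that amplifies interferon production, fell by 1.95 (SE 0.41, edgeR adjusted p = 0.0465), from 111 ± 55.5 to 28.8 ± 5.82 normalized CPM. Isg15, Stat2 and Irf7 were called in 1 of the 6 fits with a library left out. Irf9, a DNA-binding subunit of the same complex as Stat2, had overlapping groups (log2 fold change -0.23, edgeR adjusted p = 1). Ifit3 has a close copy, Ifit3b, with 54, 42 and 63 counts in Control and 0, 0 and 17 in DSS (edgeR adjusted p = 0.0932), so their reads may be shared.

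The promoters of 3 called members are shown because each holds several copies of the core of the interferon-stimulated response element, GAAANNGAA, to which interferon-activated complexes bind. They are again the 250 bases before the RefSeq start in GRCm38.p6, on the gene's strand, with matches on either strand in capitals. Where matches overlap, they form 1 run of capitals. Ifit1 is at chr19:34640639-34640888 (plus strand), Ifit3 at chr19:34583279-34583528 (plus strand) and Isg15 at chr4:156200819-156201068 (minus strand).
Ifit1: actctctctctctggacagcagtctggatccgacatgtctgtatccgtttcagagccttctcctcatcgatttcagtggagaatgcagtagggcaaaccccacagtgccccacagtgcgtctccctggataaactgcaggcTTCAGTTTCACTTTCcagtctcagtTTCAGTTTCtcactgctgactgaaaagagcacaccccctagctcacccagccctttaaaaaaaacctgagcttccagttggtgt
Ifit3: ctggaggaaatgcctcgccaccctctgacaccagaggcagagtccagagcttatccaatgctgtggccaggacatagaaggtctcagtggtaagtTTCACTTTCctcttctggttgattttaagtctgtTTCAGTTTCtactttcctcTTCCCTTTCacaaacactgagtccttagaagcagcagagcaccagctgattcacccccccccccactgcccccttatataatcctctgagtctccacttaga
Isg15: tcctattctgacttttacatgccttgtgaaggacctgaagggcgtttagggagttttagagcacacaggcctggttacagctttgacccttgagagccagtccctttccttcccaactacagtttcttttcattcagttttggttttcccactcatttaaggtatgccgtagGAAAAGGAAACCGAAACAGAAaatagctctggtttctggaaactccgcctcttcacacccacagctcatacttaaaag
Each window held 3 matches, which begin 109, 103 and 84 bases before the start in Ifit1, 155, 121 and 102 in Ifit3 and 78, 72 and 66 in Isg15. The core was found in 18 of 31 listed interferon genes with a RefSeq window (58.1%), in 7.16% of all 27025 windows, in 3 of 23 acute phase windows and in none of 34 windows of the MUP and growth hormone list. This motif, the last of the 10 searched, was added after the data were seen.

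Several other falls were in liver metabolism. Cyp8b1, the sterol hydroxylase that sets the ratio of cholic acid to other bile acids, had 88, 144 and 37 counts in Control and 21, 17 and 23 in DSS (log2 fold change -2.71, SE 0.50, edgeR adjusted p = 0.0245). It was the 1 called gene among 27 tested bile acid genes, and Cyp7a1, the rate-limiting enzyme of bile acid synthesis, had 0, 19 and 0 against 7, 27 and 18 counts. Gstp1, a glutathione transferase, was at 202, 183 and 217 normalized CPM in Control and 63.6, 60.3 and 53.5 in DSS (log2 fold change -1.76, SE 0.29, edgeR adjusted p = 0.012). Sult2a8, a hepatic sulfotransferase, was at 74.9, 74.0 and 66.6 against 19.8, 26.2 and 23.7 (log2 fold change -1.63, SE 0.29, edgeR adjusted p = 0.0222). Gstp1 and Sult2a8 were the 2 called genes of 41 tested phase II conjugation genes, whose median log2 fold change was -0.21 and turned to 0.52 with the library total as the only scale. Ces3b, a carboxylesterase, fell by 1.57 (SE 0.31, edgeR adjusted p = 0.0329), while Upp2, a uridine phosphorylase, had a log2 fold change of -3.15 (SE 0.44, edgeR adjusted p = 0.0042). Upp2 was called in 5 of the 6 fits with a library left out, Cyp8b1 in 2, Gstp1 in 1, and Sult2a8 and Ces3b in none. The list of cytochrome P450 genes leaves out Cyp8b1, which is on the bile acid list. None of its 36 tested members was called, and the smallest p-values on it belonged to Cyp2f2 (log2 fold change -1.30, edgeR adjusted p = 0.0798) and Cyp2d9 (log2 fold change -1.35, edgeR adjusted p = 0.0798), both without overlap between the groups.

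Regulatory genes were among the calls in both directions. Gadd45g, a growth arrest and stress gene, was at 16.8, 51.9 and 51.9 normalized CPM in Control and 4.09, 1.13 and 3.07 in DSS (log2 fold change -3.82, SE 0.54, edgeR adjusted p = 0.0042). Neat1, the RNA scaffold of nuclear paraspeckles, was at 13.9, 13.7 and 14.7 against 2.05, 3.07 and 3.53 (log2 fold change -2.28, SE 0.44, edgeR adjusted p = 0.0329). Chd9, a chromatin remodeller, had 7, 29 and 5 counts in Control and 197, 239 and 108 in DSS (log2 fold change 3.33, SE 0.65, edgeR adjusted p = 0.0329). Chd9 was the 1 called gene of 29 tested chromatin regulators, whose median log2 fold change was -0.24 and turned to 0.45 with the library total as the only scale. Gadd45g was called in all 6 fits with a library left out, Chd9 in 1 and Neat1 in none. Hapln4, a hyaluronan link protein, had 1, 6 and 0 counts in Control and 50, 96 and 161 in DSS (log2 fold change 4.796, SE 0.84, edgeR adjusted p = 0.0175) and was called in 2 of those fits. C4a, a complement gene that the count table annotates as a non-coding RNA and that has a close copy, C4b, fell by 3.24 (SE 0.55, edgeR adjusted p = 0.0149), and no other of 31 tested complement genes was called. The call for C4a was lost without Control-2, Control-3 or DSS-3. The remaining lower genes were Akap8l, Apol9a, Apol9b, Tmed5, Magt1, Metap1d and the pseudogenes AY036118, Gm10222 and Gm13340, with log2 fold changes between -2.38 and -1.44. Akap8l, Apol9b, AY036118 and Gm10222 were called in 2 of the 6 fits with a library left out, and Apol9a, Tmed5, Magt1, Metap1d and Gm13340 in none. Apol9a and Apol9b are close copies, and pseudogenes can share reads with near-identical genes, nuclear or mitochondrial. Whether the reads of AY036118, Gm10222 and Gm13340 came from such genes was not tested. Of 33 tested mitochondrial genes, outside these counts, 6 were called lower.

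**Figure D4:**
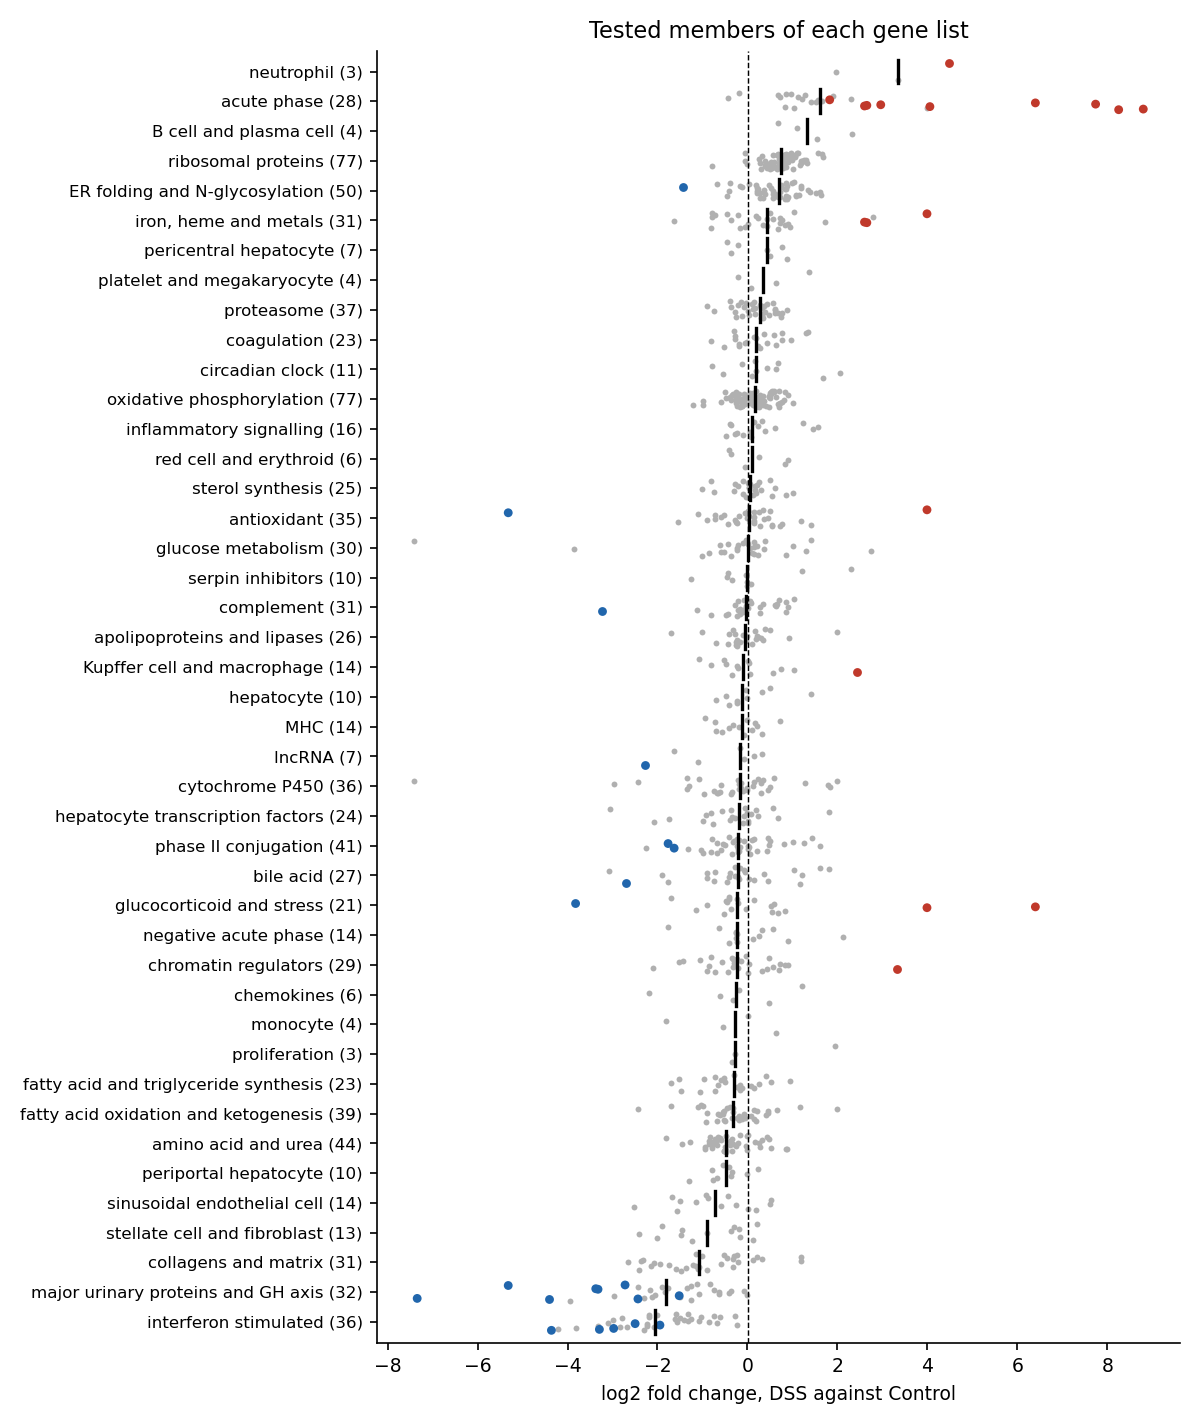
Log2 fold change of DSS against Control (x axis) for the tested members of each gene list with 3 or more of them (y axis, number tested in brackets), with a black bar at the list's median and a dashed line at the median of all nuclear genes. Red and blue points are members called higher and lower, and the lists run from a median of -2.05 for interferon-stimulated genes to 1.62 for acute phase genes. Above these lie the 3 neutrophil markers that passed the filter, Prtn3 and S100a8 through their DSS counts, which places them high.

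Most translation and secretory genes had positive log2 fold changes, with none called higher. Of 82 ribosomal protein genes 77 passed the filter and none was called, yet 73 had a positive log2 fold change, 60 had every DSS library above every Control library, and 47 had an unadjusted p under 0.05, all of them higher. Their median was 0.75 and lay between 0.64 and 1.43 in the alternative fits. The smallest p was that of Rpl26, at 35.2, 57.3 and 51.0 normalized CPM in Control and 117, 132 and 112 in DSS (log2 fold change 1.33, SE 0.30, edgeR adjusted p = 0.0778). The list took 2.3% to 2.4% of nuclear counts in Control and 3.22% to 4.51% in DSS. Of 50 tested genes for protein folding and N-glycosylation in the endoplasmic reticulum, 43 had a positive log2 fold change and 12 an unadjusted p under 0.05 upward, with a median of 0.70, which dropped to 0.32 without DSS-3 and was 1.39 with the library total as the only scale. Hspa5, the chaperone BiP, had a log2 fold change of 0.87 (edgeR adjusted p = 0.46) and Ssr4, a translocon subunit, one of 1.62 (edgeR adjusted p = 0.0713), both without overlap. The 1 called gene of the list, Magt1, an oligosaccharyltransferase subunit, fell by 1.44 (SE 0.29, edgeR adjusted p = 0.0416) and was called in none of the fits with a library left out.

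Markers of other liver cells moved in part. In bulk tissue fewer cells of a type and less RNA per cell cannot be told apart. Marco, a scavenger receptor of Kupffer cells, had 11, 17 and 12 counts in Control and 76, 112 and 150 in DSS (log2 fold change 2.43, SE 0.50, edgeR adjusted p = 0.0443). It was the 1 called gene of 14 tested Kupffer cell and macrophage markers, whose median was -0.09 (0.54 with the library total as the only scale) and whose summed expression overlapped between the groups, at 123.8 to 215 normalized CPM in Control and 164.8 to 191.2 in DSS. Clec4f, the defining Kupffer cell lectin, had 129, 291 and 78 counts against 205, 174 and 190 and overlapping groups. Cd5l, the most abundant marker of the list, was at 21.1, 35.1 and 18.7 normalized CPM in Control and 47.2, 47.8 and 59.1 in DSS. It had a log2 fold change of 1.04 (edgeR adjusted p = 0.333). Of the 14, 3 had every DSS library above every Control library and 0 every one below (7.95% and 7.97% over all tested genes). Marco was called in 1 of the 6 fits with a library left out.

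Among neutrophil markers 1 was called, at a very low level. Prtn3, the granule protease proteinase 3, had 3, 2 and 0 counts in Control and 52, 42 and 95 in DSS, a log2 fold change of 4.48 (SE 0.90, edgeR adjusted p = 0.0395), and was called in none of the fits with a library left out. From the summed counts of 5 and 189, the ratio was 23.1, with an exact 95% interval of 9.71 to 71.8 that covers counting error only. S100a8, a calcium-binding alarmin, had 4, 6 and 1 counts against 64, 54 and 46 (log2 fold change 3.35, SE 0.80, edgeR adjusted p = 0.0932). Of 15 neutrophil markers 3 passed the filter, Prtn3 and S100a8 through their DSS counts, and 6, among them the defining Ly6g, Mpo and Cxcr2, had 0 counts in all 6 libraries. The summed expression of the 15 was 1.51 to 3.30 normalized CPM in Control and 17.3 to 23.8 in DSS. The part of such cells in the rise of Lcn2 was not tested. No T cell and NK cell marker passed the filter. None of the 4 tested B cell and plasma cell markers was called, and 8 of the 12 listed did not pass the filter. The summed expression of the 12 listed B cell and plasma cell markers was 5.94 to 14.3 normalized CPM in Control and 18.2 to 45.5 in DSS, without overlap.

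Matrix genes and markers of stellate and sinusoidal cells leaned downward without calls. Of 31 tested collagen and matrix genes 26 had a negative log2 fold change, 7 had an unadjusted p under 0.05, all of them lower, and the median was -1.07 (-0.38 with the library total as the only scale). Col1a2, a chain of type I collagen, had 51, 55 and 44 counts in Control and 12, 6 and 33 in DSS (log2 fold change -2.41, SE 0.58, edgeR adjusted p = 0.0983). Col4a1, a basement membrane chain, was at 22.4, 12.1 and 25.7 normalized CPM in Control and 6.89, 9.53 and 3.76 in DSS (log2 fold change -1.59, SE 0.45, edgeR adjusted p = 0.21). Both were without overlap. Of 13 tested stellate cell and fibroblast markers 11 were below 0, with a median of -0.90, against 7 of 13 and a median of -0.22 with the library total as the only scale. Colec11, a collectin, had the smallest p (log2 fold change -1.90, SE 0.42, edgeR adjusted p = 0.069). The 14 tested sinusoidal endothelial markers had a median of -0.73, which turned to 0.03 with the library total as the only scale.

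**Figure D5:**
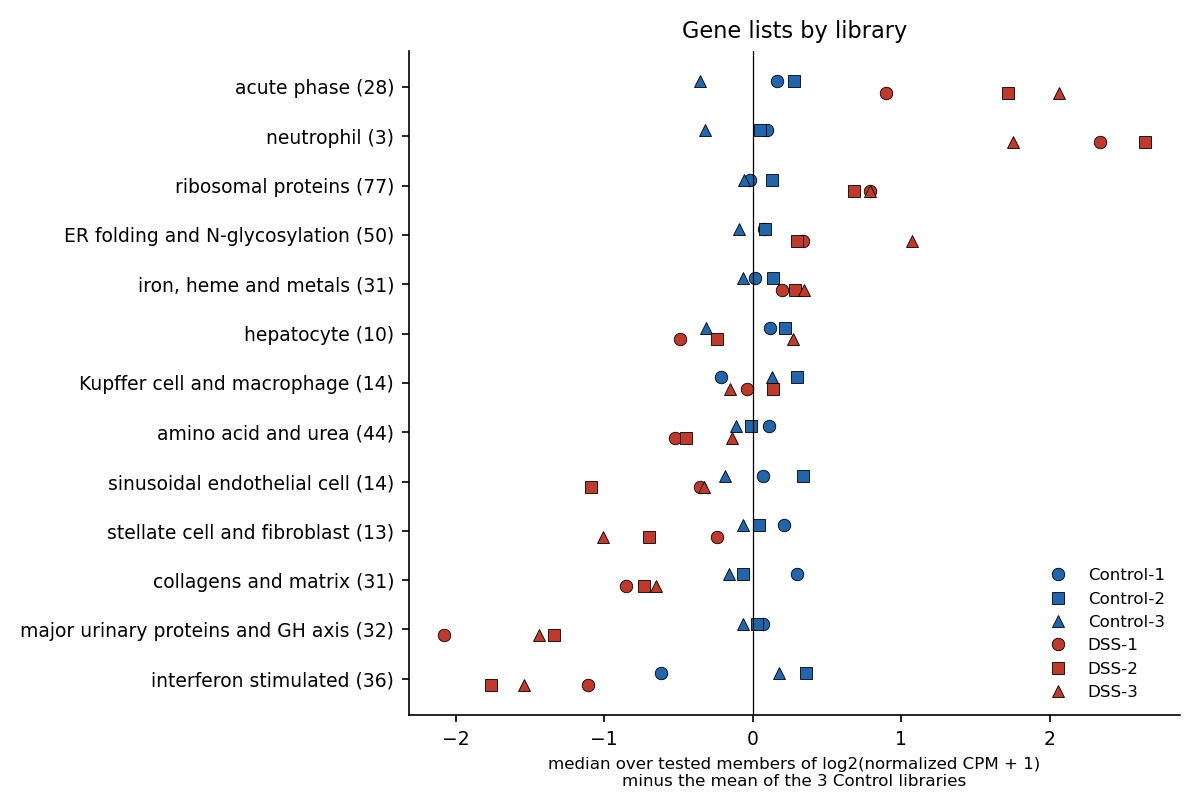
For 13 gene lists (y axis, number of tested members in brackets), the x axis gives the median over members of log2(normalized CPM + 1) minus the mean of the 3 Control libraries, 1 point per library, Control blue and DSS red. The DSS libraries lie at 0.90, 1.72 and 2.06 for acute phase genes and at -1.11, -1.76 and -1.54 for interferon-stimulated genes, apart from the Control libraries, while the hepatocyte and Kupffer cell markers overlap. Of the tested neutrophil markers, Prtn3 and S100a8 passed the filter through their DSS counts.

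Several lists of hepatocyte metabolism held no calls. None of the tested members was called among 44 genes of amino acid and urea metabolism (median -0.47, or 0.28 with the library total as the only scale), 39 of fatty acid oxidation and ketogenesis (-0.33, or 0.44 on that scale), 23 of fatty acid and triglyceride synthesis (-0.30, or 0.47), 25 of sterol synthesis (0.05, or 0.75), 30 of glucose metabolism (0.01, or 0.69) or 77 of oxidative phosphorylation (0.17, or 0.87). Of the 44 amino acid and urea genes, 34 were lower and 10 higher. Every DSS library was below every Control library in 14 and above in 3 (7.97% and 7.95% over all tested genes). At an unadjusted p under 0.05, 9 were lower and 2 higher. With the library total as the only scale, 13 of the 44 were lower. Prodh, proline dehydrogenase, had the smallest p of the amino acid genes, with 50, 94 and 41 counts in Control and 25, 12 and 54 in DSS (log2 fold change -1.80, SE 0.51, edgeR adjusted p = 0.207). Angptl8, an insulin-induced inhibitor of lipoprotein lipase, was just outside the threshold, at 28.8, 23.7 and 29.9 normalized CPM in Control and 188, 91.6 and 49.0 in DSS (log2 fold change 1.99, SE 0.43, edgeR adjusted p = 0.0556). None of 16 tested genes of inflammatory signalling, 6 chemokines or 14 major histocompatibility genes was called, and 21 and 16 further members of the first 2 lists did not pass the filter on low counts.

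A few genes were counted in a single group. Irs2, the insulin receptor substrate that hepatocytes induce on fasting, had 18, 15 and 14 counts in Control and 0 in each DSS library, at least 7.97-fold lower against a floor of 3 counts per library (edgeR adjusted p = 0.18). Cyp4a12b, a male-predominant cytochrome P450, had 14, 20 and 14 counts in Control and 0 in DSS, at least 8.03-fold lower (edgeR adjusted p = 0.174). In the other direction, Slc13a5, the citrate transporter of hepatocytes, had 0 counts in Control and 12, 23 and 11 in DSS, at least 3.66-fold higher (edgeR adjusted p = 0.409). Among the nuclear genes, 4 had 0 counts in DSS and at least 10 in each Control library, 5 the reverse, and none of the 9 was called. These bounds cover counting error in the group with 0 counts only, not that of the other group or the spread between libraries.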

How the data were processed

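Bulk RNA sequencing of liver was analysed in 6 libraries, 3 Control and 3 DSS. RNA (400 ng per library) was extracted with the RNeasy Plus Micro Kit and sequenced on a DNBSEQ platform. The read counts per gene deposited by the authors are whole numbers and were used as they are. The submitters' processing notes name GRCm39, and the aligner, the counting program and the use of strand are not given in the sources used here. FPKM values, which the authors deposited in the same table, were left aside. The group means, fold changes and p-values of the authors' own comparisons, as well as lists of genes deposited without values per library, were also left aside.

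Tests used edgeR 4.0.16 in R 4.3.3: TMM scaling, filterByExpr (minimum count 10, minimum total 15) and the quasi-likelihood F test, with p-values adjusted by Benjamini-Hochberg across all 7482 tested genes, mitochondrial ones included. Numbers of genes refer to nuclear genes. Normalized CPM are edgeR's CPM on the TMM-scaled library total, and a standard error is the absolute log2 fold change divided by the square root of F. The script was tested on simulated data. With 569044 to 2132208 nuclear counts per library, genes with few counts carry wide errors. Replicates differed by more than sampling noise, and replicate numbers did not pair the groups (correlations of -0.02, 0.01 and -0.01).

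The comparison, the 50 gene lists and the tests were chosen with earlier results of these data known. Of 1269 list members 1267 were matched by symbol, 18 of them by an older one. A naming rule gave a pool of genes, not all of which are named here. It took the 10 smallest p-values each way and the 5 largest changes each way among called genes without overlap. It also took up to 3 called members each way of a list, or else its 2 smallest p-values. The most abundant marker of each cell type was added. Other genes named were chosen after their values were seen. Alternatives were DESeq2 1.42.0 (size factors, and its Wald test), the library total as the only scale, other filters, nuclear genes only, all 9 libraries in one fit, a replicate block, other call rules and each library left out. Leaving out Control-3 and DSS-2 together was added after the data were seen. Promoter windows came from a RefSeq table of GRCm38.p6, 1 window per symbol. Figures were drawn with matplotlib 3.10.9.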

Additional observations from a re-analysis of the deposited data

How the results depend on the processing

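The 16 higher and 31 lower genes kept their direction in each fit that tested them. DESeq2 size factors gave 17 and 32 calls, nuclear genes only 15 and 29, an added cutoff of 1 on the absolute log2 scale left 16 and 31, and 14 were higher with the library total as the only scale. The counts moved further without a filter on low counts (43 higher, 68 lower), with at least 10 counts in every library (29 higher, where 44 were lower), with all 9 libraries in one fit (6 and 5), with the DESeq2 Wald test (55 and 74), at an unadjusted p under 0.05 (260 and 287), without Control-3 and DSS-2 (0 and 10) and, for lower genes, with the library total as the only scale (5). With one library left out the counts ranged from 4 to 27 higher and from 7 to 27 lower. The replicate block, where the numbers are shared by label and not by pairing, called 9 genes higher and 19 lower. Apart from filters and dropped libraries, which change the genes and samples tested, the cause was not tested. For the 32 called genes that the naming rule chose, 313 of their values in the alternative fits kept the call and 157 lost it. Depth limits genes with few nuclear counts, and 3 libraries a group limit every call.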
